A study of Mus musculus with 10 samples.

Results

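The genes analysed here were the 10 that make and load mouse MHC class I: the heavy chains *H2-K1*, *H2-D1* and *H2-T23*, the light chain *B2m*, the peptide transporter genes *Tap1* and *Tap2*, the tapasin gene *Tapbp*, and the immunoproteasome subunits *Psmb8*, *Psmb9* and *Psmb10*. They were chosen by name, as known components of the pathway, and that choice was made with earlier results of these data known. All 10 had a row in every table and passed the filter on low counts, out of 18226 genes with a count in the series. The cells were microglia from C57BL/6 mice, sorted as live CD11b high, CD45 intermediate cells and sequenced cell by cell with a 3' kit that counts captured molecules by unique molecular identifiers (UMIs). The 5 groups had 2 libraries each: adult microglia taken straight from adult brain, *in vitro* microglia that floated free of a mixed glial culture of neonatal cortex after 3 weeks, and slice microglia from coronal brain slices of neonatal pups kept in culture for 1 day, 1 week or 3 weeks. No group got a test agent, and slices were pooled as needed. The slice medium held horse serum and got human PDGF, a growth factor, at each change, the mixed glial medium held horse and bovine serum, and its recipe names no PDGF. The cultured cells therefore differed from the adult cells in the age of the donor as well as in culture. Slices differed from mixed glia in their medium and temperature. The groups also differed in the part of the brain used. Adult and slice cells were freed by homogenising tissue, and *in vitro* cells were collected with the medium. These differences cannot be told apart here.

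MHC class I molecules show short peptides from inside the cell to CD8+ T cells. A heavy chain folds with β2-microglobulin in the endoplasmic reticulum, the TAP1-TAP2 transporter pumps in peptides, and tapasin holds the heavy chain to it while a peptide is fitted. Most of these peptides are cut by the proteasome, and in immune cells and under interferon γ the catalytic subunits PSMB5, PSMB6 and PSMB7 are replaced by PSMB8, PSMB9 and PSMB10. Resting microglia make little MHC class I, and interferons raise the whole set.

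In the GENCODE vM21 annotation of GRCm38, the build that mm10 names, 8 of the 10 genes lie on chromosome 17, in and beside the MHC. *Psmb9*, on the minus strand at chr17:34181987-34187764, and *Tap1*, on the plus strand at chr17:34187553-34197225, are read away from each other out of overlapping start regions, and *Psmb8* at chr17:34197721-34201454 and *Tap2* at chr17:34203527-34216321 follow on the plus strand. *Tapbp* lies at chr17:33915899-33929292, *H2-K1* at chr17:33996017-34000347 on the minus strand, *H2-D1* at chr17:35262730-35267499 and *H2-T23* at chr17:36029773-36032855 on the minus strand. *B2m* is at chr2:122147686-122153083 and *Psmb10* at chr8:105935735-105938444 on the minus strand. All 10 are protein coding, and the positions are those of the whole gene from first to last exon.

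The promoters of the heavy and light chain genes are shown because these genes are known to carry binding sites for interferon regulatory factors (IRFs) and NF-κB. Each is the 200 bases before the RefSeq start site, read 5' to 3' on the gene's own strand: *H2-K1* from chr17:34000348-34000547 on the minus strand, *H2-D1* from chr17:35262894-35263093 on the plus strand, *H2-T23* from chr17:36032702-36032901 on the minus strand and *B2m* from chr2:122147487-122147686 on the plus strand, all GRCm38. Capitals mark matches, on either strand, to the IRF element GAANNGAAA, to the interferon-stimulated response element, which has GAAA, any 2 bases and GAAA again, or to the palindromic NF-κB element.
H2-K1: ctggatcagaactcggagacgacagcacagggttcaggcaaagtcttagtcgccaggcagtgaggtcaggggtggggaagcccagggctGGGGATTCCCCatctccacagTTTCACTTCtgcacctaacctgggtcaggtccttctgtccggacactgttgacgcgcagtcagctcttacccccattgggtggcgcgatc
H2-D1: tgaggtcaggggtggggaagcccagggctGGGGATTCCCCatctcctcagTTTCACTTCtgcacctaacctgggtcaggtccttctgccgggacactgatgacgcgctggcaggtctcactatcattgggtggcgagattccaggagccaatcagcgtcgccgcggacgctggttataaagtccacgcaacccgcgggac
H2-T23: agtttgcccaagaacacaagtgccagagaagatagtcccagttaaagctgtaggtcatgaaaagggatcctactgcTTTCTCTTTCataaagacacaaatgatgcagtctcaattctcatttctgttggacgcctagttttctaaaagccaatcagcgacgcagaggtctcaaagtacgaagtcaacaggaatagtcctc
B2m: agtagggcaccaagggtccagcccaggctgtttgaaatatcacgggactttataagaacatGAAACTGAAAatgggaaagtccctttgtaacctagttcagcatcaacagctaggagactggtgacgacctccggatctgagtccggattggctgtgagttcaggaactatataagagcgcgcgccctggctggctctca

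The *H2-K1* and *H2-D1* promoters each held the NF-κB element followed by an IRF element. They were lined up on the first base of the NF-κB element, without gaps. Over 100 bases, 25 before that base and 75 from it on, 96 were the same. In place of these, *H2-T23* and *B2m* each held 1 interferon-stimulated response element and no match to the NF-κB letters. Windows of 300 bases, from 250 before to 50 after the start, were found for 9 of the 10 genes in a RefSeq table, and *Tap2* was not among them. The IRF element was in 2 of those 9 windows against 7.52% of the 32851 windows in the table, the interferon-stimulated response element in 2 against 3.44%, and the NF-κB element in 2 against 0.03%. Both IRF element matches and both NF-κB matches lay in the stretch that *H2-K1* and *H2-D1* share, so they are not independent of each other. The motifs were textbook ones chosen after the windows had been read, so the shares test nothing. A match describes letters, not a bound site.

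The stretch between the divergent start sites of *Psmb9* and *Tap1* is shown because a short region serves both genes, of which *Psmb9* fell in all slice groups and *Tap1* was called in none. It runs over 225 bases at chr17:34187331-34187555, read on the plus strand with *Tap1* to the right, and capitals mark a GC box, GGGCGG on either strand, which 35.66% of all windows held.
Psmb9-Tap1: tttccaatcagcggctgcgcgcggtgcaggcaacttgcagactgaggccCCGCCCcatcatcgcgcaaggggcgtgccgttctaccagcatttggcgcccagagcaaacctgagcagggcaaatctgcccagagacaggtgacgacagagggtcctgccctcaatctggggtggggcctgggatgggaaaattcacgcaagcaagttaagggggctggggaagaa

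The tables listed 19637 barcodes, of which 19059 passed the limits on cells, between 61 and 3799 per library, and 218 barcode sequences occurred in more than 1 library, with at most 21 in common between any pair. Library totals ran from 385373 to 39689540 UMIs. The fewest UMIs behind a value of these genes were 11, for *Tap1* and *H2-T23* in slice 1 week replicate 2. Microglia markers summed to between 47840 and 48250 CPM (UMIs of a gene scaled to the same library total) in adult libraries, 23310 and 27940 at 3 weeks, 14080 and 16610 at 1 week, 7094 and 8000 at 1 day and 8562 and 9977 *in vitro*, with all 8 detected in every library. The 8 neutrophil markers summed to between 7726 and 22060 CPM at 1 day and 955 and 39480 at 1 week, against at most 8.39 in the other groups, and the 5 monocyte markers to between 154 and 363 CPM at 1 day and 0 and 850 at 1 week, against at most 7.10. Cells with over 1% of their UMIs in such markers of other blood cells numbered 72 of 518 and 119 of 1014 at 1 day, 25 of 148 and 1 of 61 at 1 week, and 0 in the other 6 libraries. Border macrophage markers summed to between 2132 and 2270 CPM *in vitro* against at most 316 in the other groups. Most of that sum was *Pf4* (1873 and 1788 CPM) and *Mrc1* (351 and 306 CPM). *Lyve1* (0.648 and 0.277 CPM) and *Cd163* (0.736 and 1.11 CPM) were lower *in vitro* than at 1 day (4.64 and 6.18, and 2.18 and 1.57). *F13a1* and *Cbr2* *in vitro* overlapped the 1 week libraries. Adult replicate 1 and slice 3 weeks replicate 1 carried another study label than the other 8 libraries, and what that label stands for was not stated.

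The question behind the comparisons was how far microglia kept in slices or in mixed glial culture resemble those of the adult brain, and how slice microglia change with time. The levels below are CPM scaled by TMM (trimmed mean of M-values), summed over the cells of a library. Differences are log2 fold changes from 1 edgeR model of all 5 groups, with their standard errors (SE), and adjusted p are over all 12157 genes tested. A gene was called at FDR < 0.05 and an absolute fold-change > 1.5, and "rose" and "fell" are kept for called genes. The study calls the samples of a group independent, and the labels do not say whether they came from separate animals or cultures, so p-values measure the spread between these libraries. Summed counts cannot tell fewer expressing cells from less RNA per cell.

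**Figure D1:**
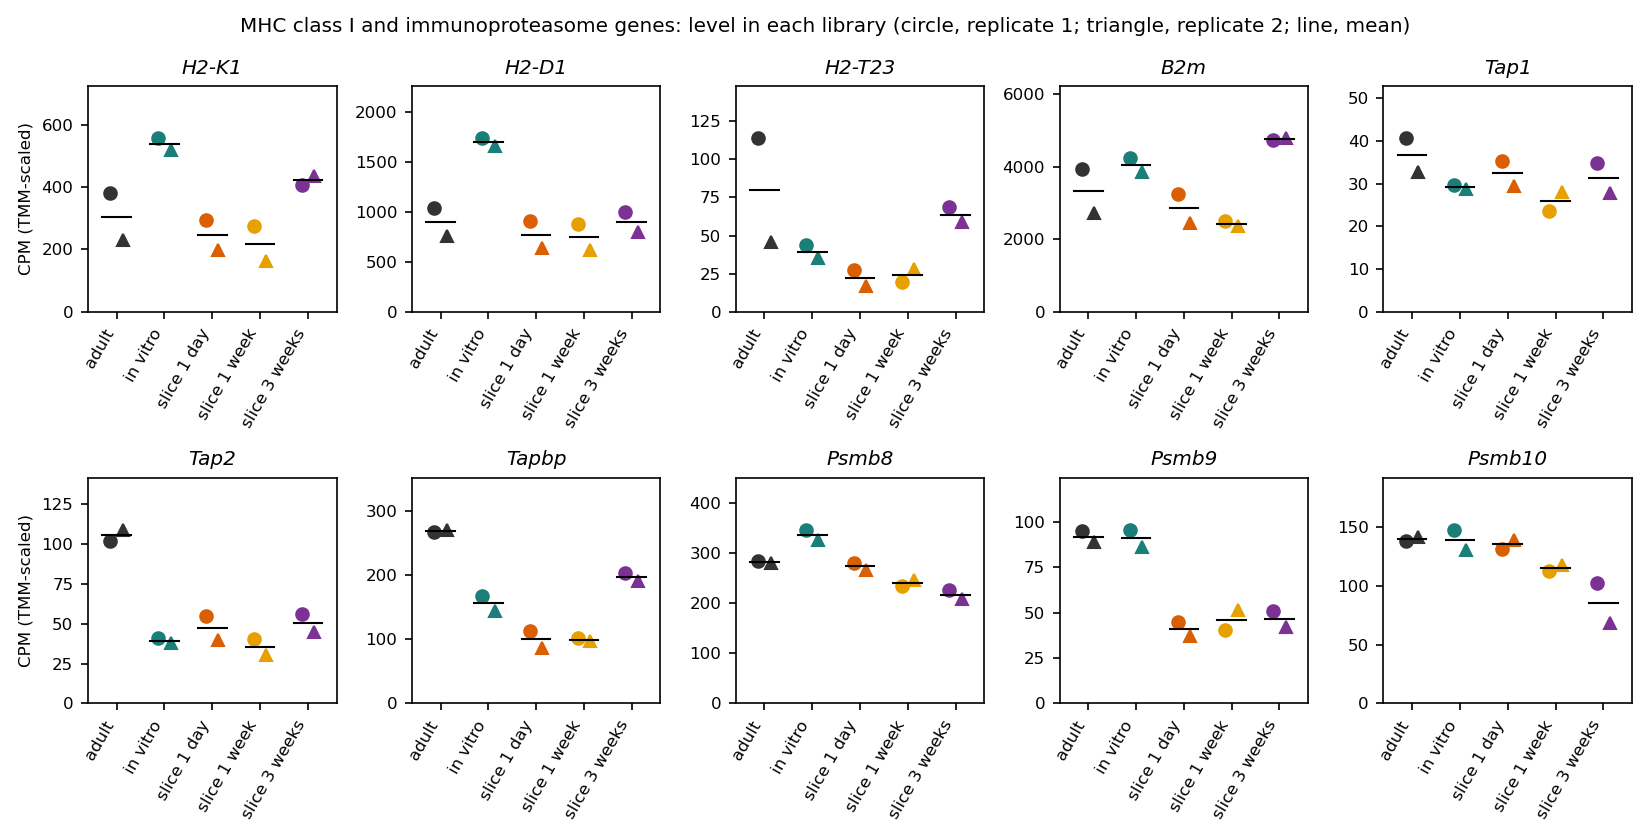
TMM-scaled CPM (linear axis from 0) of each of the 10 genes in each of the 10 libraries, by group; circles are replicate 1, triangles replicate 2 and lines the mean of the 2. *Tap2* and *Tapbp* sit highest in the 2 adult libraries, *H2-K1* and *H2-D1* highest *in vitro*, *B2m* highest at 3 weeks, and *Psmb9* sits between 36.9 and 51.2 CPM in all 6 slice libraries against 86.0 to 95.6 in the adult and *in vitro* ones.

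In the *in vitro* microglia, the classical heavy chains *H2-K1* and *H2-D1* rose while the non-classical heavy chain *H2-T23* and the loading genes *Tap2* and *Tapbp* fell, relative to adult microglia. That made 2 of the 10 genes higher and 3 lower, where 22.4% and 28.5% of all tested genes were called higher and lower. The median log2 fold change of the 10 was -0.01, against -0.11 over all genes tested.

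Slice microglia at 1 day showed the same loading genes low, with *H2-T23* and *Psmb9* beside them. Relative to adult microglia, 4 of the 10 genes fell (25.3% of all genes were called lower) and 0 rose (24.9% called higher), with a median log2 fold change of -0.28 against -0.06 over all genes. All 10 estimates were below 0, from -1.90 to -0.04. Slice 1 day replicate 1, the smallest library outside the 1 week group, kept 518 cells, more than the smallest such sample of the study. The 1 day calls were not tested on the cells that the study kept.

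At 1 week, *H2-T23*, *Tap2*, *Tapbp* and *Psmb9* again made up the calls against adult microglia. The count was 4 lower and 0 higher, with 13.6% of all genes called lower and 15.0% higher, and the median was -0.50 against -0.08. The 2 libraries held 148 and 61 cells, so this group gave the least precise values. The study also names an outlier step on a t-SNE map, which was not repeated here. It reports fewer cells at 1 week than were kept here, and does not state which step removed the others. Its smallest and largest samples outside 1 week also held fewer cells than the smallest and largest here. Libraries of other groups therefore also hold cells that the study left out. In 1 week replicate 1 the cells left out were most of the cells. The calls, at 1 week and elsewhere, were not tested on the cells that the study kept.

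At 3 weeks, *Tap2*, *Psmb9* and *Psmb10* fell relative to adult microglia and none of the 10 rose, where 17.5% of all genes were called lower and 17.9% higher. The median was -0.36 against -0.03. *Tapbp* and *Psmb8* had an adjusted p of 0.040 for each with log2 fold changes of -0.45 and -0.38, short of a 1.5-fold change. The 4 comparisons against adult microglia use the same 2 adult libraries, so their calls are not independent of each other.

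In a direct test against the 3 week slices, the *in vitro* cells were higher in *H2-D1* and in all 3 immunoproteasome subunits. These were 4 of the 10 genes (13.3% of all genes were called higher), and 0 were lower (19.9%). Over time in slices, from 1 day to 3 weeks, *H2-T23*, *B2m* and *Tapbp* rose (13.9% called higher) and *Psmb10* fell (12.8% called lower).

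**Figure D2:**
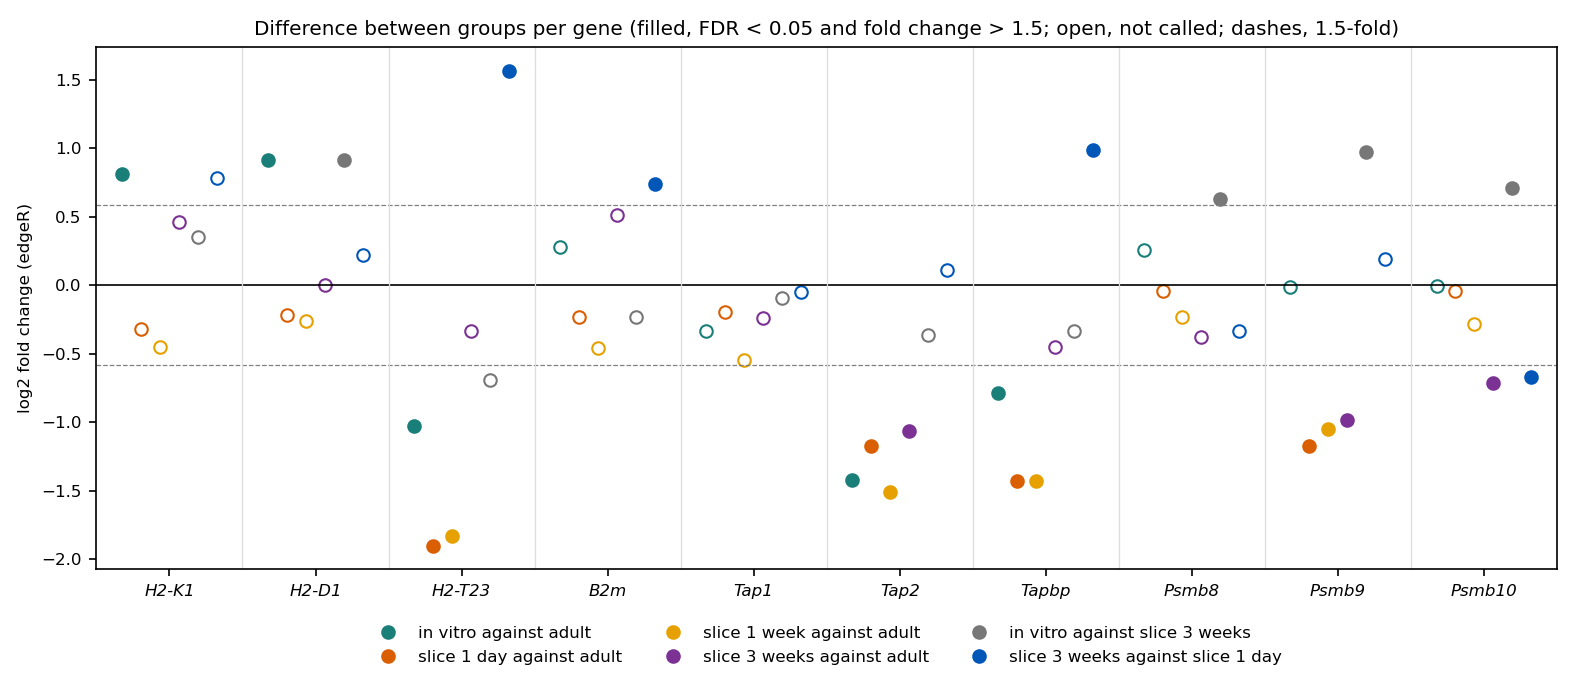
log2 fold change of each gene (x axis) in the 6 comparisons (colours); filled circles passed FDR < 0.05 and an absolute fold-change > 1.5, open circles did not, and dashed lines mark 1.5-fold. *Tap2* is filled below 0 in all 4 comparisons with adult microglia and *Tap1* is filled in none of the 6.

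*H2-K1* and *H2-D1* encode the classical heavy chains that present peptide to CD8+ T cells. *H2-K1* stood at 382 and 229 CPM in the adult libraries, 556 and 518 *in vitro*, 293 and 197 at 1 day, then 274 and 164 at 1 week, then 407 and 437 at 3 weeks. Both *in vitro* libraries and both 3 week libraries were above every other library, and the adult, 1 day and 1 week libraries overlapped. *H2-K1* rose by 0.81 (SE 0.28, adjusted p = 0.031) *in vitro* relative to adult and was not called at 3 weeks (log2 fold change 0.46, SE 0.28, adjusted p = 0.22). From 1 day to 3 weeks the value was 0.79 (SE 0.28) with an adjusted p of 0.059, and 8 of 18 alternative fits called it higher.

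*H2-D1* stood at 1045 and 764 CPM in adult libraries, 1742 and 1664 *in vitro*, 914 and 638 at 1 day, then 882 and 617 at 1 week, then 1006 and 804 at 3 weeks. The *in vitro* libraries were the 2 highest, and the other 8 overlapped across groups. *H2-D1* rose by 0.91 (SE 0.24) in the *in vitro* microglia relative to both adult (adjusted p = 0.0076) and 3 week slice microglia (adjusted p = 0.012), and the means of adult and 3 week libraries were 904 ± 199 and 905 ± 143 CPM (SD, n = 2). The rises in culture rest in part on adult replicate 2, the lower of the pair: without it, *H2-K1* was at 0.49 (adjusted p = 0.22) and *H2-D1* at 0.70 (adjusted p = 0.070), and *H2-K1* also lost its call without *in vitro* replicate 1 (adjusted p = 0.062) and with scaling by library size alone (0.51, adjusted p = 0.12).

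*H2-D1* made up between 73.2% and 76.9% of the UMIs of the pair *H2-K1* plus *H2-D1* in the adult libraries. *In vitro* and 1 day libraries lay between 75.7% and 76.4%, 1 week libraries between 76.3% and 79.02%, and the 3 week libraries at 71.2% and 64.8%. The 3 week libraries were thus the 2 lowest. The last 500 bases of the 2 genes, where 3' reads fall, share sequence with each other and with other genes: 9.60% of the 50-base words of *H2-K1* also occur in transcripts of other genes, with *H2-D1* (7.71%) and *H2-Q1* (5.44%) leading, and 8.92% of those of *H2-D1* do, with *H2-K1* leading (3.52%) and most of the other genes outside class I, so part of their reads could be split or lost.

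*H2-T23* encodes Qa-1, a non-classical heavy chain that shows signal peptides of other class I chains to CD94/NKG2A receptors. Its levels were 114 and 45.7 CPM in the adult libraries, 43.6 and 35.1 *in vitro*, 27.3 and 16.9 at 1 day, then 19.8 and 28.1 at 1 week, then 68.4 and 58.8 at 3 weeks. All 4 libraries of the first week lay below all 6 others, and adult replicate 1 stood far above adult replicate 2. *H2-T23* fell by 1.90 (SE 0.38, adjusted p = 0.0018) at 1 day and by 1.83 (SE 0.51, adjusted p = 0.021) at 1 week relative to adult, and rose by 1.57 (SE 0.38, adjusted p = 0.012) from 1 day to 3 weeks.

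Its fall *in vitro*, by 1.03 (SE 0.35, adjusted p = 0.027), was less secure. Without adult replicate 1 the *in vitro* value was -0.12 (adjusted p = 0.75), and with the study label as a covariate it was -0.53 (adjusted p = 0.16). The call was also lost without *in vitro* replicate 1 (adjusted p = 0.080), *in vitro* replicate 2 (0.20) or either 1 week library (0.066 and 0.065). Against adult replicate 2 alone, which has the same study label, the 2 *in vitro* libraries differed by -0.38 and -0.07, and the 1 day libraries by between -1.43 and -0.74. At 1 week the call was lost without adult replicate 1 (adjusted p = 0.080), without slice 1 week replicate 1 (0.30) and without slice 1 week replicate 2 (0.058), and the rise to 3 weeks was lost without slice 1 day replicate 2 (0.12). Of the 50-base words in the last 500 bases of *H2-T23*, 38.1% also occur in transcripts of other genes, and an antisense gene overlaps it in full. Genes on the other strand also overlap *B2m*, *Tap2*, *Tapbp*, *Psmb8* and *Psmb10*, and the strand setting of the counting was not given in the sources used here.

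*B2m* encodes the light chain that every class I molecule needs to fold. It stood at 3949 and 2742 CPM in adult libraries, 4244 and 3855 *in vitro*, 3257 and 2448 at 1 day, then 2495 and 2364 at 1 week, then 4733 and 4792 at 3 weeks. The 3 week libraries were the highest and the 1 week libraries among the lowest. *B2m* rose by 0.74 (SE 0.20, adjusted p = 0.018) from 1 day to 3 weeks, a call lost without slice 1 day replicate 2 (0.56, adjusted p = 0.16). Relative to adult it was not called in any group, with log2 fold changes of 0.28 (SE 0.20) *in vitro*, -0.23 (SE 0.20) at 1 day, -0.46 (SE 0.20) at 1 week and 0.51 (SE 0.20) at 3 weeks. Without adult replicate 1, the higher of the pair, *B2m* was called higher *in vitro* (0.66, adjusted p = 0.029) and at 3 weeks (0.85, adjusted p = 0.017).

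As molecules counted per cell, with no scaling, *B2m* stood at 14.2 and 6.04 UMIs in adult libraries, 54.7 and 51.2 *in vitro*, 23.99 and 23.4 at 1 day, then 17.1 and 15.1 at 1 week, then 31.7 and 27.5 at 3 weeks. *H2-D1* stood at 3.75 and 1.68 UMIs per cell in adult libraries against 22.4 and 22.1 *in vitro*. The depth of the cells moved with these values: a median cell had 1858 UMIs in adult replicate 2 and 13966 in replicate 2 *in vitro*. Larger cells and deeper sequencing cannot be told apart from them.

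*Tap1* and *Tap2* encode the chains of the peptide transporter. *Tap1* stood at 40.7 and 32.7 CPM in adult libraries, 29.7 and 28.8 *in vitro*, 35.4 and 29.5 at 1 day, then 23.7 and 28.1 at 1 week, then 34.8 and 27.9 at 3 weeks. It varied least of the 10, with 1.41-fold between the highest and the lowest group mean, and was called in none of the 6 comparisons. Its largest difference was -0.55 (SE 0.24, adjusted p = 0.12) at 1 week, and with scaling by library size alone it was called lower *in vitro* (-0.63) and at 1 week (-0.76).

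*Tap2* stood at 102 and 109 CPM in adult libraries, 41.0 and 37.7 *in vitro*, 55.0 and 39.7 at 1 day, then 40.5 and 30.7 at 1 week, then 56.4 and 45.1 at 3 weeks. No cultured library reached the lower adult one. *Tap2* fell by 1.42 (SE 0.18, adjusted p = 7.5e-05) *in vitro*, by 1.17 (SE 0.18, adjusted p = 0.00039) at 1 day, by 1.51 (SE 0.23, adjusted p = 0.00088) at 1 week and by 1.06 (SE 0.18, adjusted p = 0.0011) at 3 weeks. All 18 alternative fits called it lower in all 4 comparisons, and the 4 cultured groups could not be put in an order, since *in vitro* and 3 week microglia differed by -0.36 (SE 0.18, adjusted p = 0.13) and 3 week and 1 day slices by 0.11 (SE 0.18).

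*Tapbp* encodes tapasin, which holds the heavy chain at the transporter. Its levels were 267 and 270.5 CPM in the adult libraries, 168 and 144 *in vitro*, 113 and 87.1 at 1 day, then 102 and 97.2 at 1 week, then 204 and 191 at 3 weeks. The libraries fell into 4 levels that did not overlap: adult, 3 weeks, *in vitro*, and the 1 day and 1 week libraries together. *Tapbp* fell by 0.79 (SE 0.15, adjusted p = 0.0015) *in vitro*, by 1.43 (SE 0.16, adjusted p = 4.4e-05) at 1 day and by 1.43 (SE 0.17, adjusted p = 0.00022) at 1 week, and it rose by 0.98 (SE 0.16, adjusted p = 0.0016) from 1 day to 3 weeks. The *in vitro* call was lost without *in vitro* replicate 2 (adjusted p = 0.064), and *Zbtb22*, on the same strand, overlaps *Tapbp* and holds 4.83% of its 50-base words.

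*Psmb8* encodes the immunoproteasome subunit with chymotrypsin-like activity, LMP7. It stood at 284 and 280.4 CPM in adult libraries, 347 and 326 *in vitro*, 281 and 266 at 1 day, then 235 and 246 at 1 week, then 227 and 208 at 3 weeks. The *in vitro* libraries were the highest and the 3 week libraries the lowest. *Psmb8* rose by 0.63 (SE 0.13, adjusted p = 0.0037) *in vitro* relative to 3 weeks and was not called against adult in any group, with values between -0.38 and 0.25. With scaling by library size alone the *in vitro* difference from 3 weeks was 0.53, short of 1.5-fold.

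*Psmb9*, or LMP2, replaces the caspase-like subunit. Its levels were 94.8 and 88.6 CPM in adult libraries, 95.6 and 86.0 *in vitro*, 44.8 and 36.9 at 1 day, then 40.5 and 51.2 at 1 week, then 51.0 and 41.9 at 3 weeks. All 6 slice libraries lay below all 4 adult and *in vitro* libraries, with no overlap. *Psmb9* fell by 1.18 (SE 0.16, adjusted p = 0.00017) at 1 day, by 1.05 (SE 0.20, adjusted p = 0.0029) at 1 week and by 0.99 (SE 0.16, adjusted p = 0.00076) at 3 weeks relative to adult. It was not called *in vitro* (-0.01, SE 0.15), and *in vitro* microglia exceeded 3 week slice microglia by 0.97 (SE 0.16, adjusted p = 0.00091). The 1 week call was lost without slice 1 week replicate 1 (adjusted p = 0.10), which leaves 20 UMIs of the gene in that group. *Tap1*, which starts across the divergent stretch shown above, stood at -0.19 (SE 0.17), -0.55 (SE 0.24) and -0.24 (SE 0.17) in the same 3 comparisons.

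*Psmb10*, or MECL-1, replaces the trypsin-like subunit. It stood at 138 and 142 CPM in adult libraries, 148 and 130.4 *in vitro*, 132 and 139.5 at 1 day, then 113 and 118 at 1 week, then 102 and 68.8 at 3 weeks. The adult, *in vitro* and 1 day libraries overlapped, and the 3 week libraries were the lowest and far apart. *Psmb10* fell by 0.72 (SE 0.18, adjusted p = 0.0098) at 3 weeks relative to adult and by 0.67 (SE 0.18, adjusted p = 0.019) relative to 1 day, and was higher by 0.71 (SE 0.18, adjusted p = 0.011) *in vitro* than at 3 weeks. Without slice 3 weeks replicate 2 these became -0.40 (adjusted p = 0.081), -0.40 (adjusted p = 0.10) and 0.51 (adjusted p = 0.036), none of them called, and the fall against adult was also lost without adult replicate 1 (adjusted p = 0.053). The fall from 1 day was lost without either 1 day library (adjusted p = 0.053 and 0.11), and the *in vitro* difference without *in vitro* replicate 1 (0.064).

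Within a study label, each cultured library could be set against the adult library of the same label, without a test. *Tap2* differed from it by -1.53 to -1.41 *in vitro* and by -1.27 to -0.86 at 3 weeks, and *Psmb9* by -1.26 to -0.98 at 1 day and by -1.08 to -0.89 at 3 weeks. *Tapbp* differed by -0.90 to -0.69 *in vitro* and by -1.64 to -1.26 at 1 day, and *Psmb10* by -1.04 to -0.44 at 3 weeks. *H2-K1* lay above it by between 1.18 and 1.28 and *H2-D1* by between 1.12 and 1.19 *in vitro*. These differences had the direction of the pooled calls in every library named. Each *in vitro* library was set against adult replicate 2 alone, the lower adult library for *H2-K1* (229 CPM) and *H2-D1* (764 CPM). The *H2-K1* and *H2-D1* differences were thus larger than the pooled 0.81 and 0.91. *H2-T23*, not among the genes named, differed by only -0.38 and -0.07 *in vitro*, against a pooled -1.03. The 1 day and 1 week libraries and the *in vitro* libraries all carried the same label, so between them the label does not differ.

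The 3 subunits that the immunoproteasome replaces were lowest in adult microglia. *Psmb5* stood at 137 and 124 CPM in adult libraries, 274 and 287 *in vitro*, 328 and 354 at 1 day, then 179.8 and 209.8 at 1 week, then 183 and 164 at 3 weeks. *Psmb6* (208 to 659 CPM) and *Psmb7* (80.9 to 245 CPM) were likewise lowest in the adult and highest in the 1 day libraries. All 3 rose *in vitro* (1.10, 0.98 and 0.88, in the order *Psmb5*, *Psmb6*, *Psmb7*) and at 1 day (1.38, 1.54 and 1.41), and *Psmb6* and *Psmb7* rose at 1 week (0.96 and 0.67) and 3 weeks (1.00 and 0.59), while *Psmb5* was not called there (0.56 and 0.41). Of the other 11 core subunits of the 20S proteasome, 9 rose *in vitro*, 11 at 1 day, 2 at 1 week and 2 at 3 weeks, and 0 fell. The shares of all genes called higher were 22.4%, 24.9%, 15.0% and 17.9% in the same order, so the 2 of 11 at 1 week and at 3 weeks were near the background. Taking the largest change of each gene, *Psmb4* (1.77), *Psma6* (1.13) and *Psma7* (1.10) led these 11 subunits, each at 1 day.

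The ratio of each immunoproteasome subunit to its counterpart, taken within a library, needs no scaling between libraries. Counts from a 3' kit carry no length scaling, so a ratio is read between libraries and not as a ratio of the proteins. *Psmb8*/*Psmb5* was 2.07 and 2.25 in adult libraries, 1.26 and 1.14 *in vitro*, 0.858 and 0.753 at 1 day, then 1.31 and 1.17 at 1 week, then 1.24 and 1.27 at 3 weeks. *Psmb9*/*Psmb6* was 0.457 and 0.375 in adult libraries, 0.232 and 0.186 *in vitro*, 0.0708 and 0.0560 at 1 day, then 0.0962 and 0.119 at 1 week, then 0.121 and 0.0895 at 3 weeks. *Psmb10*/*Psmb7* was 1.37 and 1.75 in adult libraries, 0.922 and 0.741 *in vitro*, 0.555 and 0.569 at 1 day, then 0.732 and 0.886 at 1 week, then 0.690 and 0.542 at 3 weeks. In each of the 3 pairs, all 8 cultured libraries lay below both adult libraries.

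On the log2 scale, the group means differed from adult by -0.85, -0.99 and -0.90 *in vitro* for *Psmb8*/*Psmb5*, *Psmb9*/*Psmb6* and *Psmb10*/*Psmb7*. At 1 day they differed by -1.43, -2.72 and -1.46, at 1 week by -0.81, -1.95 and -0.94, and at 3 weeks by -0.79, -1.99 and -1.34, with SDs within a group of 0.02 to 0.31. Counted together, the immunoproteasome subunits held 53.7% and 53.6% of the UMIs of the 6 catalytic genes in adult libraries. They held 41.1% and 37.0% *in vitro*, 27.6% and 26.0% at 1 day, then 33.8% and 34.6% at 1 week, then 33.6% and 29.5% at 3 weeks. The shares of the groups did not overlap between adult, *in vitro*, the later slices and 1 day. No test of the ratios or shares was run.

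**Figure D3:**
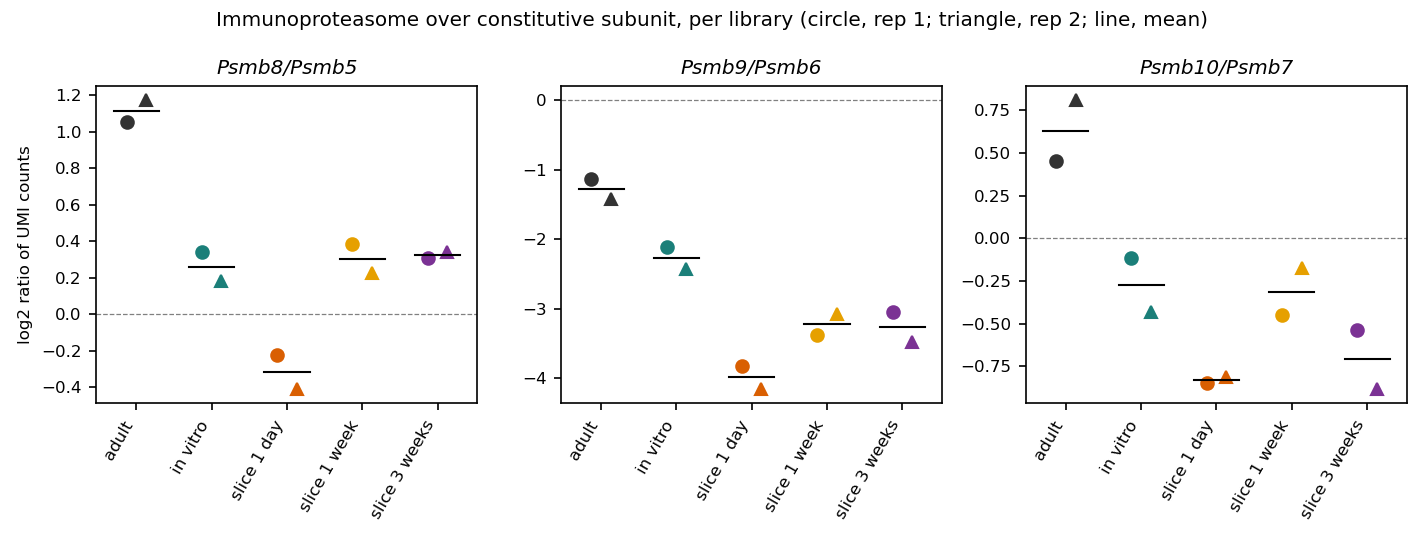
log2 ratio of the UMI counts of each immunoproteasome subunit to the constitutive subunit that it replaces, per library and group; circles are replicate 1, triangles replicate 2, lines the mean of the 2, and the dashed line marks equal counts. Both adult libraries lie above all 8 cultured libraries in each panel, and the 1 day libraries are the 2 lowest for *Psmb8*/*Psmb5* and *Psmb9*/*Psmb6*.

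Of the partners that load and trim peptides (6 genes, all tested), *Tapbpl*, the tapasin-like editor TAPBPR, fell in all 4 comparisons with adult, by 1.79 *in vitro*, 1.47 at 1 day, 1.72 at 1 week and 1.03 at 3 weeks, with SEs of 0.20 to 0.31. Its levels were 53.5 and 45.9 CPM in adult libraries against 13.4 to 28.7 in the 8 cultured ones. *Pdia3*, the disulphide isomerase of the loading complex, fell *in vitro* by 0.97 (SE 0.16) and at 1 week by 0.69 (SE 0.16). *Calr*, the chaperone calreticulin, rose at 1 day by 0.89 (SE 0.23), and *Erap1*, which trims peptides in the endoplasmic reticulum, was called in none of the 4 (-0.55 to 0.37). Counts for the 6 were 2 lower and 0 higher *in vitro*, 1 and 1 at 1 day, then 2 and 0 at 1 week, then 1 and 0 at 3 weeks, where 28.5%, 25.3%, 13.6% and 17.5% of all genes were called lower, and counts of 1 or 2 of 6 are too few to be set apart from those shares.

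Of 18 other class I and class I-like heavy chain genes, 11 passed the filter on low counts, and 2 rose and 3 fell *in vitro*, 2 and 4 at 1 day, then 1 and 2 at 1 week, then 3 and 2 at 3 weeks. Over all genes, 22.4% were called higher and 28.5% lower *in vitro*. At 1 day these shares were 24.9% and 25.3%, then 15.0% and 13.6% at 1 week, then 17.9% and 17.5% at 3 weeks, and the counts of the lists that follow read against them. *H2-T22*, a non-classical ligand of γδ T cells, stood at 34.5 and 25.1 CPM in adult libraries and rose *in vitro* by 0.82 (SE 0.17) to 50.4 and 55.2. *Fcgrt*, the heavy chain of the neonatal Fc receptor, which also pairs with β2-microglobulin, rose *in vitro* by 1.33 (SE 0.13), at 1 week by 0.76 (SE 0.13) and at 3 weeks by 0.70 (SE 0.13). *H2-M3*, which presents formylated peptides, fell at 1 day by 1.21 (SE 0.16) and at 1 week by 0.89 (SE 0.20). The 6 genes of proteasome activators and assembly factors rose in 2 cases *in vitro* and 3 at 1 day and were called in 0 cases at 1 and 3 weeks, with 0 falling. *Psme2*, a subunit of the interferon-inducible PA28 activator, rose by 1.00 (SE 0.14) *in vitro* and by 0.94 (SE 0.14) at 1 day, whereas its partner *Psme1* was not called (0.30 and 0.45), nor was the immunoproteasome chaperone *Pomp* (0.29 and 0.31). *Psme3*, the subunit of the nuclear activator, rose at 1 day by 0.93, and *Psmg1*, an assembly chaperone, fell by 0.93 from 1 day to 3 weeks.

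Among genes that receive and pass on the interferon signal, *Ifngr1* was lower in every cultured group. Of 19 tested from a list of 21, 5 fell and 2 rose *in vitro*, 12 fell and 1 rose at 1 day, 6 fell and 0 rose at 1 week, and 6 fell and 0 rose at 3 weeks, with medians of -0.49, -0.87, -0.62 and -0.35 against -0.11, -0.06, -0.08 and -0.03 over all genes. The 5 that fell *in vitro* were near the share of all genes called lower there, 28.5%, and the 12 at 1 day were above the 25.3% of all genes. *Ifngr1*, the ligand-binding chain of the interferon γ receptor, stood at 1286 and 1479 CPM in adult libraries and at 235 to 540.1 in the 8 others, and fell by 2.29 (SE 0.22), 2.23 (SE 0.22), 1.52 (SE 0.21) and 1.48 (SE 0.21) in the same order. *Irf1*, a factor that drives class I and immunoproteasome genes, fell at 1 day by 0.97 (SE 0.28) and at 3 weeks by 1.53 (SE 0.28). *Irf9*, a transcription factor of the type I interferon response, fell in all 3 slice groups (log2 fold changes of -1.12, -1.31 and -0.76, with SEs of 0.20, 0.28 and 0.20). *Nlrc5*, the transactivator of class I promoters, was low everywhere, at 0 to 3.70 CPM, and rose *in vitro* by 2.09 (SE 0.48) from 1.10 and 0.386 to 3.18 and 3.70 CPM. *Socs3*, a feedback inhibitor of cytokine signalling, fell by 2.13 (SE 0.23) *in vitro* relative to 3 weeks.

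Of 16 interferon-stimulated genes tested, from a list of 17, 7 rose and 1 fell *in vitro*, 8 and 0 at 1 day, then 1 and 3 at 1 week, then 1 and 2 at 3 weeks. The adult libraries stood apart in several of these genes, with replicate 1 at 35.6 CPM and replicate 2 at 1.16 for *Cxcl10*, 37.1 and 12.2 for *Ifit3*, an antiviral gene, and 37.3 and 14.6 for *Isg15*, a ubiquitin-like modifier, all 3 named after their values were seen. Replicate 1 was also the higher for *H2-K1*, *H2-D1*, *H2-T23* and *B2m*, and the part of the interferon genes in those levels was not tested. Without adult replicate 1 the counts were 11 higher and 0 lower *in vitro*, 11 and 0 at 1 day, then 1 and 3 at 1 week, then 3 and 1 at 3 weeks. Without adult replicate 2, with 17 tested, they were 6 and 3 *in vitro*, 5 and 2 at 1 day, then 1 and 7 at 1 week, then 0 and 6 at 3 weeks. *Ifi204*, a DNA sensor, rose *in vitro* by 3.26 (SE 0.31). *Ifit3* was called lower at 1 week than in adult, on 2 and 1 UMIs at 1 week, and the chemokine gene *Cxcl10* fell by 3.34 (SE 0.87) *in vitro* relative to 3 weeks. Of 6 genes of MHC class II presentation tested, 6 fell *in vitro* and 0 rose, 2 fell and 1 rose at 1 day, then 3 and 0 at 1 week, then 4 and 1 at 3 weeks. *H2-DMa* and *H2-DMb1*, which load class II molecules, fell at 1 day by 2.89 and 2.79, and *H2-Ab1*, a class II β chain, fell by 8.29 (SE 0.66) *in vitro* relative to 3 weeks, on 7 and 10 UMIs *in vitro*, whereas none of the 10 genes was lower in that comparison.

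Within libraries, most of the 10 genes stood higher in the cells that expressed interferon-stimulated genes. Cells were thinned to 1000 UMIs each, which left out 66 and 205 shallower cells of the adult libraries and 2 of slice 1 week replicate 2, and those with 3 or more UMIs from a list of 17 interferon genes, which holds none of the 10, were set against the other cells of their library, in CPM without TMM scaling. Enough such cells, at least 20, were found in 7 libraries, between 20 and 117 cells each, and slice 3 weeks replicate 1 had 10. At 1 week 0 of 148 and 0 of 59 cells passed. *H2-K1*, *Tap1*, *Psmb9* and *Psmb10* were above the other cells in 7 of 7 libraries, *H2-D1*, *H2-T23*, *B2m* and *Tapbp* in 6 of 7, and *Tap2* and *Psmb8* in 5 of 7. Many of these rest on few molecules: *Psmb9* in slice 3 weeks replicate 2 was above on 1 UMI (47.6 CPM, 95% Poisson interval 1.21 to 265, against 39.0) and in 1 day replicate 2 on 2 UMIs (64.5 CPM, 7.81 to 233, against 34.6). For *Psmb9* the interval included the level of the other cells in all libraries but adult replicate 1 (100 to 338, against 99.97) and replicate 2 *in vitro*. For *Psmb10* it did so in all but replicate 1 *in vitro* (166 to 356, against 149). In those libraries the genes cannot be told from the other cells. At 1800 UMIs per cell *Psmb10* in replicate 1 *in vitro* was at 133 CPM against 138, below the other cells. The constitutive subunits *Psmb5*, *Psmb6* and *Psmb7* were above in 2, 3 and 3 of 7.

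*Tap1*, which was called in none of the 6 comparisons, showed the widest gap of the 10 between these cells, with a median log2 ratio of 2.22 and a range of 0.59 to 3.31, on 1 to 11 UMIs a library. In adult replicate 1 it stood at 177 CPM (95% Poisson interval 88.6 to 317.5, 11 UMIs) in 62 such cells against 41.4 CPM in the others, and in adult replicate 2 at 308 CPM (133 to 606, 8 UMIs) in 26 cells against 35.8. *In vitro* it stood at 59.8 CPM (24.1 to 123, 7 UMIs) against 26.1 in replicate 1 and at 110.0 CPM (54.9 to 197, 11 UMIs) against 23.6 in replicate 2. Of these 4 libraries, the interval lay above the level of the other cells in both adult libraries and in replicate 2 *in vitro*, and included it in replicate 1 *in vitro*. With cells thinned to 1800 UMIs, which left more cells past the limit, replicate 1 *in vitro* was at 58.3 CPM (38.7 to 84.2, 28 UMIs) against 26.6, above the other cells. These intervals cover counting error only.

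*H2-K1* stood at 1532 CPM (1240.0 to 1873) in the 62 cells of adult replicate 1 against 406 in the others, at 654 (381 to 1047) against 244 in adult replicate 2, at 850.0 CPM (495 to 1361) against 365.5 in 1 day replicate 1 and at 709.7 (445 to 1074) against 200.4 in 1 day replicate 2. *In vitro* the same contrast was 529.9 (406 to 679) against 487 and 580.0 (440.4 to 749.8) against 455, and at 3 weeks, in replicate 2, 524 (261.5 to 937) against 410.1. The intervals lay above the level of the other cells in the 4 adult and 1 day libraries and included it in the other 3. That split changed with the setting: at 1800 UMIs per cell *H2-K1* was at 584.7 CPM (518 to 657) against 514 and 573 (505.5 to 648) against 461 *in vitro*, and in slice 3 weeks replicate 1 at 703 (508.5 to 946) against 384, all above the other cells, while slice 3 weeks replicate 2 was at 544 (398 to 725) against 419.5. With 5 or more UMIs from the list, replicate 1 *in vitro* was at 956.5 (599 to 1448) against 485, and replicate 2 at 613 (369 to 957) against 458. Over the 10 genes, the median log2 ratio was 1.11 and 1.09 in adult libraries, 1.27 and 1.21 at 1 day, 0.28 and 0.22 *in vitro*, and 0.32 in slice 3 weeks replicate 2. With 5 or more UMIs from the list it was 0.62 *in vitro* and 1.35 in adult replicate 1, the adult library with enough such cells. The 0.62 leaves out *Tap2* in replicate 2 *in vitro*, which had 0 UMIs in the 31 such cells and so no ratio. Leaving it out raises that median. The cells were picked by the interferon genes, and cells of 1 library are not replicates, so no test was made.

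**Figure D4:**
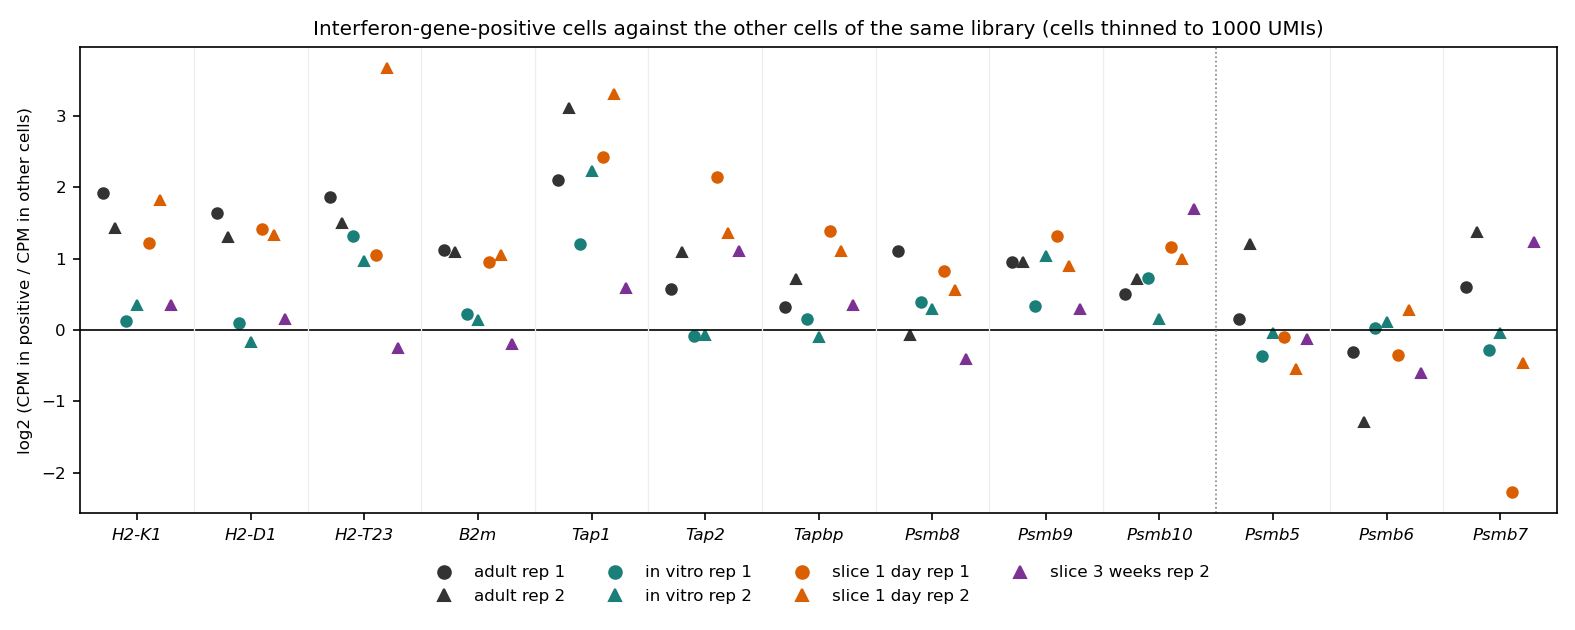
log2 ratio of the CPM in interferon-gene-positive cells to that in the other cells of the same library, for the 10 genes and, right of the dotted line, the 3 constitutive subunits; each point is a library, coloured by group, with circles for replicate 1 and triangles for replicate 2. The adult and 1 day points of *H2-K1*, *H2-D1* and *B2m* lie above the *in vitro* and 3 week points, and the constitutive subunits scatter around 0.

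The neutrophil and monocyte markers moved with the first week in slices, so the 10 genes were measured in the marker-rich cells too, in CPM without TMM scaling. In 119 such cells of 1 day replicate 2, *H2-T23* stood at 31.4 CPM (95% Poisson interval 20.3 to 46.3) against 15.9 in the other cells, *H2-D1* at 877 (813 to 944) against 628, *Tap2* at 41.4 (28.5 to 58.1) against 40.3, *Tapbp* at 74.0 (56.3 to 95.5) against 89.9 and *Psmb9* at 30.1 (19.3 to 44.8) against 38.2. The other libraries went the other way for the last pair of genes: *Tapbp* was at 159.8 (107 to 229.6) against 115 in 1 day replicate 1, and *Psmb9* at 60.6 (30.3 to 108.5) against 46.0 there and at 80.5 (41.6 to 140.6) against 31.1 in 1 week replicate 1. In the marker-rich cells of 1 day replicate 2 *B2m* stood at 1258 (1182 to 1339) against 2603 and *Psmb8* at 113 (90.8 to 139) against 286. With these cells removed, the falls at 1 day were by 2.00 for *H2-T23*, 1.19 for *Tap2*, 1.45 for *Tapbp* and 1.19 for *Psmb9*, and the falls at 1 week by 1.99, 1.501, 1.49 and 1.25, and the same 4 genes were called at each time. The other cells that the study left out, at 1 week and elsewhere, were not identified here.

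Over the 10 libraries, 39 of the 45 pairs of the 10 genes had a correlation of log2 CPM above 0, and *Psmb10* was in 4 of the 6 pairs below 0. The highest correlations were between *H2-T23* and *Tapbp* (Pearson r = 0.90), *H2-K1* and *B2m* (0.89) and *H2-K1* and *H2-D1* (0.88), and the lowest between *B2m* and *Psmb10* (-0.40), each over 10 libraries of 5 groups, which are not independent points. Against the mean of the 10 genes' standardised levels, the most alike were *Irf9* (r = 0.96, 17.9 to 64.3 CPM), *Foxk2* (0.95, 1.96 to 6.89 CPM), *Ly96* (0.92, 25.6 to 100.4 CPM), *Dalrd3* (0.91, 7.68 to 39.3 CPM) and *Trim30c* (0.91, 0 to 3.73 CPM). These were the highest of all other genes tested, so high values are given by the choice.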

How the data were processed

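Per the study's methods and the labels, the authors sorted microglia, made 10x 3' v2 libraries and deposited, for each library, raw UMI counts per gene and cell from Cell Ranger 1.3.0 on mm10; the annotation was not given in the sources used here. Cells with over 5% mitochondrial counts, under 400 genes or over 30000 UMIs were removed, by the limits that the study gives. Its outlier step on a t-SNE map was not repeated, and doublets were not called. Counts were summed per library and tested in 1 model of 10 libraries with edgeR 4.0.16 (quasi-likelihood, TMM, filterByExpr with a minimum count of 10, Benjamini-Hochberg over 12157 genes; SEs were taken from the fold change and the F statistic), and alternatives included DESeq2 1.42.0. The fit was tested on simulated data. Same-numbered libraries deviated with correlations of -0.1 to 0.087, so the numbers were not taken as pairs. Named genes outside the 10 were up to 3 per list with the largest called fold change at a mean log2 CPM of at least 4, and a fixed set of 12 others, of which 1 is not reported here. The 10 genes and the lists were chosen with earlier results of these data known. Depth was 385373 to 39689540 UMIs per library, so 3 counts, the least taken as detected, came to between 0.0756 and 7.78 CPM.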

Additional observations from a re-analysis of the deposited data

Results flagged for a closer look

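Results were singled out where the change from adult microglia differed between 2 cultured groups by a direct test of the difference in the edgeR model. Between the *in vitro* group and 3 week slices, the change from adult differed by 0.91 on the log2 scale for *H2-D1*, 0.97 for *Psmb9*, 0.71 for *Psmb10* and 0.63 for *Psmb8*, higher *in vitro* in each case. Between slice microglia at 3 weeks and at 1 day, it differed by 1.57 for *H2-T23*, 0.98 for *Tapbp* and 0.74 for *B2m*, higher at 3 weeks, and by -0.67 for *Psmb10*, lower at 3 weeks. Groups of 2 libraries are too small for a test of single libraries that stand apart.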

How the results depend on the processing

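The fits that left out 1 library assume that the lone library of a group varies like the other groups. Over them, the 10 genes gave 0 to 3 higher and 1 to 3 lower calls *in vitro* against adult, 2 to 5 lower at 1 week, 0 to 1 higher at 3 weeks, 0 to 1 lower *in vitro* against 3 weeks, and 1 to 4 higher and 0 to 1 lower at 3 weeks against 1 day. The calls over all genes moved too: at 1 week, without slice 1 week replicate 1, they were 859 higher and 587 lower of 12676. Scaling by library size alone left 1 higher *in vitro* against adult, and no filter on low genes gave 1 lower *in vitro* against 3 weeks. The cause was not tested.

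Library size alone moved the median of all genes by -0.30 *in vitro* against adult, -0.12 at 1 day, -0.22 at 1 week, -0.20 at 3 weeks and -0.10 *in vitro* against 3 weeks, and the calls over all genes became 2017 higher and 4718 lower, 2723 and 3588, 1518 and 2507, 1705 and 3059, and 1304 and 2862, against 2719 and 3461, 3023 and 3081, 1822 and 1650, 2182 and 2126, and 1611 and 2423. For 3 weeks against 1 day they became 1432 and 1820, against 1689 and 1557.

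With the replicate number as a block, H2-K1, slice 3 weeks against slice 1 day, was called (0.83, adjusted p = 0.020), which made 4 higher, and no other call of the 10 genes changed.

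Median log2 ratios in interferon-positive cells were 1.35 in adult replicate 1 alone and 0.62 *in vitro* with 5 or more UMIs, where *Tap2* gave no ratio in replicate 2 *in vitro*. They were 0.86 in adult, 0.96 at 1 day and 0.42 at 3 weeks with cells thinned to 1800 UMIs. The cause was not tested.

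The values that changed sign were all of genes not called. *In vitro* against adult, *Psmb10* and *Psmb9* became 0.057 and 0.052 with DESeq2's size factors and with DESeq2, 0.16 and 0.15 with no filter, 0.078 and 0.059 with all barcodes and 0.12 and 0.081 with the study label as a covariate, and with library size alone *B2m* became -0.026 and *Psmb8* -0.053. At 1 day, *Psmb10* and *Psmb8* became 0.0048 and 0.0056 with DESeq2's size factors, 0.0054 and 0.0041 with DESeq2 and 0.00091 and 0.0058 with all barcodes, and *Psmb10* 0.083 with the study label. *H2-D1* at 3 weeks became -0.20 with library size alone. *Tap1* became 0.0088 with no filter and 0.068 with the study label *in vitro* against 3 weeks, and 0.040 with all barcodes at 3 weeks against 1 day.

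Leaving out 1 library, the ranges that crossed 0 were, at 1 day, -0.47 to 0.10 for *B2m*, -0.50 to 0.078 for *H2-D1*, -0.64 to 0.14 for *H2-K1*, -0.0283 to 0.0027 for *Psmb10*, -0.0818 to 0.054 for *Psmb8* and -0.34 to 0.020 for *Tap1*. At 1 week they were -0.52 to 0.021 for *H2-D1* and -0.87 to 0.0027 for *H2-K1*, and at 3 weeks -0.21 to 0.30 for *H2-D1* and -0.84 to 0.53 for *H2-T23*. *In vitro* they were -0.012 to 0.20 for *Psmb10* and -0.0655 to 0.18 for *Psmb9* against adult and -0.19 to 0.15 for *Tap1* against 3 weeks. From 1 day to 3 weeks they were -0.0085 to 0.50 for *H2-D1*, -0.21 to 0.13 for *Tap1* and -0.12 to 0.35 for *Tap2*.

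A planned filter on cells with 2 or more UMIs of other cell types' markers was not run, since it took 100% of the cells of slice 1 day replicate 2 and slice 1 week replicate 1. Its replacement, without the marker-rich cells, was chosen after seeing the data and changed no call. Depth limits the 1 week values most.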
